A study of Mus musculus with 162 samples.

Results

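Cell cycle genes were followed in 9 mouse organs at 6 durations of short-term fasting. The 37 genes were taken by gene symbol from the 53686 rows of the count table, and all 37 had a row. Their roles fall into 24 genes of mitosis and 13 of G1/S control and DNA replication. Male C57BL/6J wild-type mice, 8 to 9 weeks old and group-housed, were fed ad libitum (0 h) or had food removed 2, 8, 12, 18 or 22 h before tissue collection. All mice had water and were collected at 1 time of day, so the clock time of food removal differed with the duration. Each time point had 3 mice, and each of the 18 mice gave the same 9 organs. Of the nervous system these were the olfactory bulb (OB), brain (BRN, telencephalon and diencephalon), cerebellum (CBL) and brainstem (BST), and of the digestive system stomach (STM) and liver (LIV). Of the fat depots they were the interscapular brown one (iBAT), the perigonadal white one (pgWAT) and the posterior-subcutaneous white one (psWAT). No group carried a transgene or an agent, and the comparisons are of fasted with fed or briefly fasted mice and of organs with each other.

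mRNA was sequenced in 1 library per mouse and organ. The libraries kept held 3045845 to 27801717 counted read pairs, and 1 library each at BRN 8 h, BRN 18 h, STM 12 h, iBAT 22 h and psWAT 22 h was left out for a low total. Levels below are normalized CPM, counts scaled to the library's total and between the libraries of an organ. They are read within a gene, and levels of different genes are compared only per kilobase of exon.

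A cell that divides must copy its DNA once and then share the copies between its daughters. E2F transcription factors and cyclin E open S phase, Cdc6 loads the MCM helicase onto replication origins, and the sliding clamp Pcna and the enzymes of deoxynucleotide supply serve the replication fork. Later, cyclins A and B with the kinase Cdk1 drive mitosis, in which motors, kinases and checkpoint proteins build and control the spindle. Most cells of an adult organ rest outside the cycle, so these transcripts come mainly from the few cells that divide. In the stomach these are chiefly progenitors of the gastric glands, which renew the surface epithelium throughout life. Liver cells divide rarely, adult brain has few dividing cells, and a lymph node, such as the one that lies within the subcutaneous fat, holds dividing lymphocytes.

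Cell cycle promoters share short motifs, and those of 4 members are printed here to show them. They are 3 genes called lower in stomach, the mitotic Top2a and the helicase subunits Mcm5 and Mcm3, and Mki67, the common mark of cycling cells, which was not called. The windows come from RefSeq (GRCm38.p6), read 5′ to 3′ on the gene's strand from 250 bases before to 50 bases after the start of transcription. Capitals mark matches, on either strand, of the CCAAT box (CCAAT), of the cell cycle genes homology region, or CHR (TTTGAA or TTCGAA), and of the E2F site (TTTCCCGC, TTTCGCGC, TTTGCCGC or TTTGGCGC). Top2a lies on the minus strand at chr11:99024140-99024439, Mki67 on the minus strand at chr7:135716330-135716629, Mcm5 on the plus strand at chr8:75109259-75109558 and Mcm3 on the minus strand at chr1:20820263-20820562.
Top2a: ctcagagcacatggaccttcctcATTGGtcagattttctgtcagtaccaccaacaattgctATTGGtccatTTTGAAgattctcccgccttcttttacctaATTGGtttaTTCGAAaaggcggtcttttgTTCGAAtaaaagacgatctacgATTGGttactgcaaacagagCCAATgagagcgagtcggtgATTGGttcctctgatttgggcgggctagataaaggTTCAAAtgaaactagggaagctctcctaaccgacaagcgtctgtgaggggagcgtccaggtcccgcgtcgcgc
Mki67: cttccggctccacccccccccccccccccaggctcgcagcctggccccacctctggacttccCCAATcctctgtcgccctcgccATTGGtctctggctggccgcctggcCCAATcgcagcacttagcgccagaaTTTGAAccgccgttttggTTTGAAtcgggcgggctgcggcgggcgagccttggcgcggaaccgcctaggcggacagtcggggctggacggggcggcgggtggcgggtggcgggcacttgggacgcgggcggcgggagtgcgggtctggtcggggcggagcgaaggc
Mcm5: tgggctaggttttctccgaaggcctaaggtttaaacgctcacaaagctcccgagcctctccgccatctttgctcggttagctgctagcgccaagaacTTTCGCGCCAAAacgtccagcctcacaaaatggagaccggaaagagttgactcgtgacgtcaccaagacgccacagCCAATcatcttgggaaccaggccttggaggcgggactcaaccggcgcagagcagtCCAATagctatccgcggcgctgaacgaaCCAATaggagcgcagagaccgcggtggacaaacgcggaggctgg
Mcm3: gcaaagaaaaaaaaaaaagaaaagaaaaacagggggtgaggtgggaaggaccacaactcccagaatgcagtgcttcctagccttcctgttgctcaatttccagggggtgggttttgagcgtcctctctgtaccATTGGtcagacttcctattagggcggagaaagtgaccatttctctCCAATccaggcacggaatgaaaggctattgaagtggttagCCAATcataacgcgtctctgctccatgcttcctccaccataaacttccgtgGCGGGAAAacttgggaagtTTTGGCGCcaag

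The Top2a window held 6 CCAAT boxes and 4 CHR matches and no E2F match, and the Mki67 window held 3 and 2. The Mcm5 and Mcm3 windows each held 3 CCAAT boxes and 2 E2F matches, those of Mcm5 sharing bases, and no CHR. Of the 37 members, 32 had a window in the table, 34 windows in all; Ccna2, Aurkb, Kif20a, Tpx2 and Mcm4 had none. A CCAAT box was in 76.5% of the 34 windows against 37.4% of all 32851 windows of the table. A CHR match was in 81% of the 21 windows of mitotic members and 15.4% of the 13 windows of replication members, against 19.2% of all windows. An E2F match was in 4.76% of the mitotic and 38.5% of the replication windows, against 2.26% of all. A CCAAT box and a CHR match stood together in 76.2% of mitotic windows and 7.52% of all windows. These matches are a description of letters, and no binding was measured.

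In STM the cell cycle genes were lower late in fasting. The summed level of the 37 genes was lowest 557, median 609 and highest 775 normalized CPM in the 6 libraries at 0 and 2 h, and lowest 258, median 319 and highest 426 in the 6 libraries at 18 and 22 h. The 2 sets of libraries did not overlap. The late contrast, the mean of 18 and 22 h minus the mean of 0 and 2 h, was fitted with edgeR's quasi-likelihood test over the 16281 genes kept in STM, and a gene was called at a Benjamini-Hochberg adjusted p (FDR) below 0.05 and an absolute log2FC above 1. Of the 36 members tested, 21 were called lower and 0 higher. With sequencing lane, which nearly coincided with time in STM, as a term in the fit, none was. Of all genes tested 3.39% were called lower, and 7.39% in either direction. Without the fold threshold 28 members were lower at FDR below 0.05, against 12% of all genes. The median log2FC of the 36 members was -1.12 and that of all genes 0.01. All late libraries lay below all early libraries for 19 of the 36 members, against 4.59% of all genes. Leaving out 1 early or late library at a time called 14 to 24 members, fewest without replicate 1 of 0 h, while leaving out every library of replicate 1 called 3 members and 63 genes lower, and of replicate 3 called 7 and 95. In bulk tissue, fewer dividing cells and less of these RNAs per cell cannot be told apart.

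**Figure D1:**
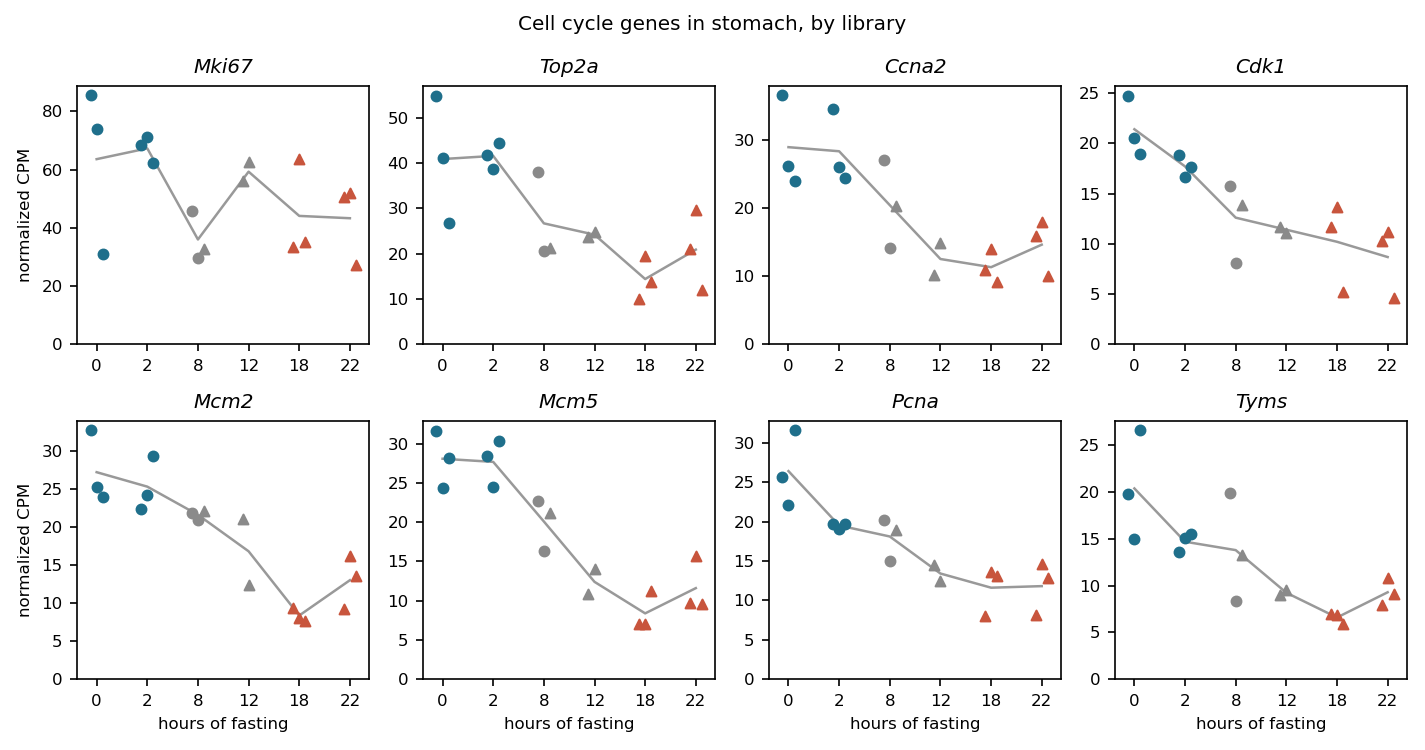
Normalized CPM (y axis) of 8 cell cycle genes in each stomach library by hours of fasting (x axis), 1 panel per gene. Circles are libraries of sequencing lane 5 and triangles of lane 6, blue marks 0 and 2 h, grey 8 and 12 h, red 18 and 22 h, and the line joins the time point means; for Mcm2 the red points span 7.66 to 16.2 and the blue points 22.4 to 32.7.

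The MCM helicase, the ring of Mcm2 to Mcm7 that unwinds DNA at the fork, gave the smallest p-values of the members. Mcm5 was lowest 24.4, median 28.3 and highest 31.7 normalized CPM early, and lowest 6.99, median 9.61 and highest 15.7 late. Its 8 h libraries (22.7, 16.3 and 21.2) and its 12 h libraries (10.8 and 14.0) lay between most of the early and late values. The late log2FC of Mcm5 was -1.49 (SE 0.178, edgeR adjusted p = 0.000248), a fold of 2.81 lower. For Mcm2 the early libraries had a lowest of 22.4, a median of 24.7 and a highest of 32.7, and the late ones 7.66, 9.3 and 16.2. Mcm2 fell by 1.33 on the log2 scale (SE 0.172, edgeR adjusted p = 0.000295). Mcm3 went from 27.7, 29.5 and 34.9 (lowest, median, highest) to 8.36, 15.2 and 19.3, a log2FC of -1.11 (SE 0.142, edgeR adjusted p = 0.000293). Mcm6 went from 41.6, 51.9 and 55.2 to 18.8, 24.3 and 31.1 with a log2FC of -1.04, and Mcm4 from 19.3, 21.6 and 25.1 to 6.98, 10.1 and 13.1 with a log2FC of -1.14. Mcm6 was not called without replicate 1 of 0 h, replicate 1 of 18 h or replicate 3 of 22 h, nor with library totals only. Early and late libraries were fully apart for each of these 5 subunits. Mcm7 was the exception, with a late log2FC of -0.37 (SE 0.139, edgeR adjusted p = 0.0638) and late libraries (20.6 to 29.3) that reached into the early range (27.3 to 40.8). Exons of Mcm7 overlap Ap4m1 on the other strand over 7.3% of their length.

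Behind the helicase, the genes that feed the fork were also lower. Rrm2, the regulated subunit of ribonucleotide reductase, had a late log2FC of -1.13 (SE 0.213, edgeR adjusted p = 0.00223). Tyms, thymidylate synthase, had one of -1.15 (SE 0.202, edgeR adjusted p = 0.00154). Rrm2 was not called without replicate 1 of 22 h. Pcna was lowest 19.1, median 20.9 and highest 31.6 early and 7.98, 12.9 and 14.6 late, with no overlap. Its log2FC of -0.95 (edgeR adjusted p = 0.002) and that of the thymidine kinase Tk1, -0.87 (edgeR adjusted p = 0.00967), passed the FDR but not the fold threshold.

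None of the 3 genes at the entry to S phase was called. E2f1, the transcription factor, had a log2FC of -0.61 (edgeR adjusted p = 0.158), cyclin E1 (Ccne1) -0.54 (edgeR adjusted p = 0.142), and the loader Cdc6 -0.81 (edgeR adjusted p = 0.0489), which passed the FDR but not the fold threshold. E2f1 ranged from 5.24 to 7.97 early and from 0.97 to 6.81 late, and Ccne1 from 3.1 to 5.96 and from 1.8 to 4.75, so that the groups overlapped.

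All 4 genes of the cyclin and kinase core of mitosis were called. Cyclin A2 (Ccna2), which acts in S phase and G2, was lowest 24, median 26.1 and highest 36.5 early and 9.12, 12.4 and 17.9 late, a log2FC of -1.15 (SE 0.202, edgeR adjusted p = 0.00151). Cdk1, their catalytic partner, went from 16.6, 18.8 and 24.7 to 4.6, 10.7 and 13.7, a log2FC of -1.05 (SE 0.246, edgeR adjusted p = 0.00741). Cyclin B1 (Ccnb1) had the largest estimate of the core, -1.60 (SE 0.45, edgeR adjusted p = 0.0186), at low levels of 3.83 to 11.5 early and 0.384 to 3.42 late. Cyclin B2 (Ccnb2) had a log2FC of -1.23 (edgeR adjusted p = 0.0114). Each of the 4 had all late libraries below all early ones. Without replicate 1 of 0 h, or without replicate 3 of 18 h, neither Ccnb1 nor Cdk1 was called. Cdk1 was also not called without replicate 3 of 22 h. Exons of Ccna2 overlap Exosc9 on the other strand over 12.5% of their length.

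Of the mitotic kinases and the chromosomal passenger complex, which corrects chromosome attachment and guides cytokinesis, 3 of 5 were called. Aurkb, its kinase, fell by 1.38 (SE 0.275, edgeR adjusted p = 0.00295), from 6.24 to 10.5 early to 1.55 to 5.7 late. Its partner Birc5, or survivin, had a log2FC of -1.20 (edgeR adjusted p = 0.00396), and the centrosomal kinase Aurka one of -1.12 (edgeR adjusted p = 0.0102). Aurka was not called without replicate 1 of 0 h. Plk1, a kinase needed from mitotic entry to exit, did not pass (-0.59, edgeR adjusted p = 0.177), with a late library (14.8) near the highest early value (15.0). Ttk, the checkpoint kinase Mps1, was at 1.18 to 4.94 early and 0.499 to 2.51 late, and its log2FC of -1.26 had an SE of 0.589 and did not pass (edgeR adjusted p = 0.129).

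Of the spindle checkpoint genes, Bub1 (-1.58, SE 0.428, edgeR adjusted p = 0.0152) and Bub1b, or BubR1 (-1.01, SE 0.246, edgeR adjusted p = 0.00868), were called. Bub1b was not called without replicate 1 of 0 h, replicate 1 or 3 of 2 h, or replicate 3 of 18 or 22 h. Cdc20, the activator of the anaphase-promoting complex, was at -0.95 (edgeR adjusted p = 0.0252). Of 6 motors and spindle proteins tested, 4 were called, and all 6 passed the FDR. The called ones were Kif20a (-1.37, edgeR adjusted p = 0.00573) and Prc1 (-1.38, edgeR adjusted p = 0.00572), which act at the central spindle, and the microtubule-binding proteins Tpx2 (-1.15, edgeR adjusted p = 0.0122) and Nusap1 (-1.16, edgeR adjusted p = 0.0383). Tpx2 was not called without replicate 1 of 0 h or replicate 3 of 22 h. With single early or late libraries left out, Nusap1 was called only without replicate 2 of 18 h or of 22 h. Kif23, a motor of cytokinesis, and Kif2c, which takes microtubules apart at their ends, were lower by less than the threshold, at -0.77 and -0.89. Exons of Kif20a overlap Cdc23 over 29.3% and those of Prc1 overlap Rccd1 over 11.1% of their length, both on the other strand. Kif11, the motor that separates the spindle poles, had 1 count in 1 library and none in the others, and it was not tested in any organ.

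The 3 centromere genes gave no call. The centromeric histone Cenpa was at -0.74 (edgeR adjusted p = 0.034) with no overlap between early and late libraries. Cenpf, a kinetochore protein, was at -0.59 (edgeR adjusted p = 0.149). The kinetochore motor Cenpe was the only tested member with a late log2FC above 0 in STM, 0.11 (SE 0.307, edgeR adjusted p = 0.826), with 6.79 to 10.6 early and 2.81 to 15.5 late.

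Of the 2 genes used most as marks of proliferation, 1 was called. Top2a, the topoisomerase that untangles replicated DNA, was lowest 26.8, median 41.6 and highest 54.8 early and 10.1, 16.6 and 29.7 late. The libraries overlapped by 1 late library at 22 h, and Top2a fell by 1.25 (SE 0.235, edgeR adjusted p = 0.00222). Mki67, which encodes the Ki-67 antigen of cycling cells, was lowest 31.1, median 69.9 and highest 85.8 early and 27.1, 42.9 and 63.8 late. Its log2FC was -0.58 (SE 0.238, edgeR adjusted p = 0.0854) and was not called. Among the late values lay 1 library at 0 h (31.1) and 1 at 2 h (62.2). Whether Mki67 and Top2a differed in their change was not tested.

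**Figure D2:**
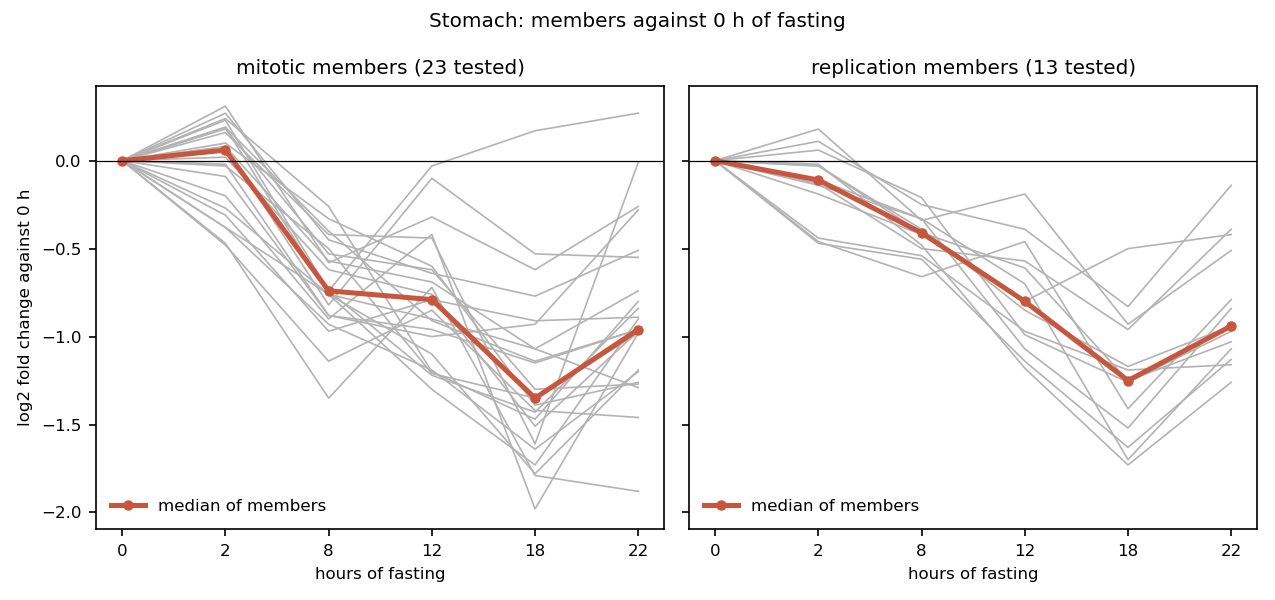
Log2FC against 0 h (y axis) of each tested member in stomach by hours of fasting (x axis), with mitotic and replication members in separate panels and the median of each panel as a thick line. Both medians are lowest at 18 h, at -1.35 for mitotic and -1.25 for replication members.

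Set against the fed libraries alone, the members' median went down stepwise to 18 h. The median log2FC of the 36 members against 0 h was -0.02 at 2 h, -0.55 at 8 h, -0.80 at 12 h, -1.28 at 18 h and -0.95 at 22 h, while that of all genes stayed between -0.03 and 0.00. At 18 h 19 members were called lower, against 4.77% of all genes, and at 22 h only Mcm5 was called, against 0.0491% of all genes. Over all time points 19 members were called, against 8.75% of all genes; without replicate 3 of 18 h 8 were, without replicate 1 of 18 h 10, and without replicate 1 of 0 h 11. The joint test of the 5 times against 0 h called 11 members, against 6.55% of all genes, of which 8 were replication and 3 mitotic members. Without replicate 1 or 3 of 18 h it called 5 or 4, and without replicate 1 of 0 h or replicate 1 or 3 of 2 h 7 each. Its smallest values were those of Mcm3 and Mcm5 (edgeR adjusted p = 0.00414 each), Mcm2 (edgeR adjusted p = 0.00639) and Mcm6 (edgeR adjusted p = 0.00728). The medians of mitotic and replication members were 0.06 and -0.11 at 2 h, -0.74 and -0.41 at 8 h, -0.79 and -0.80 at 12 h, -1.35 and -1.25 at 18 h and -0.96 and -0.94 at 22 h. Whether 18 and 22 h differed from each other was not tested.

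Sequencing lane ran almost with time in STM. Lane 5 held all libraries of 0 and 2 h and 2 of 8 h, and lane 6 held the third of 8 h and all later ones. With lane as a term in the fit, no member was called in the late contrast, the comparisons with 0 h or the joint test, and no gene of all 16281 was called in the late contrast or the joint test. The late log2FC remained below 0 for 35 of 36 members with a median of -0.98. The median SE of a member rose from 0.258 to 0.601, and 12 members had an unadjusted p below 0.05 in edgeR. At 8 h, the time point in both lanes, the summed level of the members was 543 and 333 in lane 5 and 427 in lane 6. For 30 of the 36 members the lane 6 library at 8 h lay between the lane 5 libraries, for 5 above and for 1 below them. The lane 6 library at 8 h lay below all 6 early libraries for 25 of the 36 members and above all 6 late libraries for 13, of which 10 were among the 21 called. These 8 h positions were counted for members only, so they are not set against all genes.

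Markers of other cells also moved in STM, and their part in the result was not tested. The summed pit and neck cell markers, 6 products secreted by these gastric cells, were 29200 to 106000 normalized CPM early and 10900 to 51500 late, with 1 of 6 markers fully lower. Parietal and chief cell markers were 123000 to 185000 early and 71200 to 165000 late, with 0 of 4 fully apart. Skeletal muscle markers were 260 to 1670 early and 1820 to 3500 late, with 3 of 4 fully higher. Of all genes tested in STM 3.27% were fully higher and 4.59% fully lower. Pancreatic acinar markers were 91.7 to 531 early and 10.1 to 59.4 late, with 1 of 4 fully lower. The macrophage sum was 56.2 to 84.3 late, within its early range, and the B cell sum stayed at or below 3.12 in the early and late libraries. No marker of these 6 lists was at 0 in every library.

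Other genes of the pathway, listed apart from the members, were counted in the same fit. Of 25 further genes of mitosis 11 were called lower late and 0 higher, with a median of -0.97. The called genes with the smallest joint p were Melk, a mitotic kinase (log2FC -2.52, SE 0.333, edgeR adjusted p = 0.000344), and Ect2, which acts in cytokinesis (-1.64, edgeR adjusted p = 0.0014). Of 20 further genes of replication 7 were called lower and 0 higher, with a median of -0.87. Of these, Uhrf1, which guides maintenance methylation, was at -1.43 (edgeR adjusted p = 0.000656) and Rrm1, the large subunit of ribonucleotide reductase, at -1.06 (edgeR adjusted p = 0.000304). Of 38 regulators 3 were called lower and 0 higher, against the 3.39% of all genes called lower given above: cyclin E2 (Ccne2, -1.34, edgeR adjusted p = 0.00798) and the E2F family members E2f7 (-1.47) and E2f2 (-1.09). The regulators' median was -0.25. Wee1, which inhibits Cdk1, was at -0.57 (edgeR adjusted p = 0.00842) and cyclin D1 (Ccnd1) at -0.36 (edgeR adjusted p = 0.0252). The CDK inhibitor p21 (Cdkn1a) overlapped between early and late libraries, with highest levels of 202 and 211 and a log2FC of 0.03 (SE 0.173, edgeR adjusted p = 0.92).

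The stomach difference was then set against the mean of the same contrast in the other 8 organs, in a fit over the 11679 genes kept in every organ. Only 14 members could be tested there, mostly replication genes, since most mitotic members were too low in some organ. Of these, 7 were called lower in STM than in the other organs, against 1.89% of all genes. Pcna had the smallest p: its STM change was -0.95, the other organs lay between 0.00 and 0.54, and the difference was -1.07 (SE 0.168, edgeR adjusted p = 4.53e-07). The differences of Mcm3 (-1.27, SE 0.229, edgeR adjusted p = 8.9e-06), Mcm2 (-1.39, SE 0.259, edgeR adjusted p = 1.62e-05) and Ccna2 (-1.27, SE 0.244, edgeR adjusted p = 2.86e-05) followed. Mcm5 (-1.37), Rrm2 (-1.17) and Cdk1 (-1.30) were called too. Without the fold threshold 13 of 14 were lower, the exception being Ccne1 (-0.49, edgeR adjusted p = 0.172). The 1.89% of all genes is with that threshold, so the count of 13 is not set against all genes. This fit has no lane term, so the difference carries the lane limit given above for STM.

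**Figure D3:**
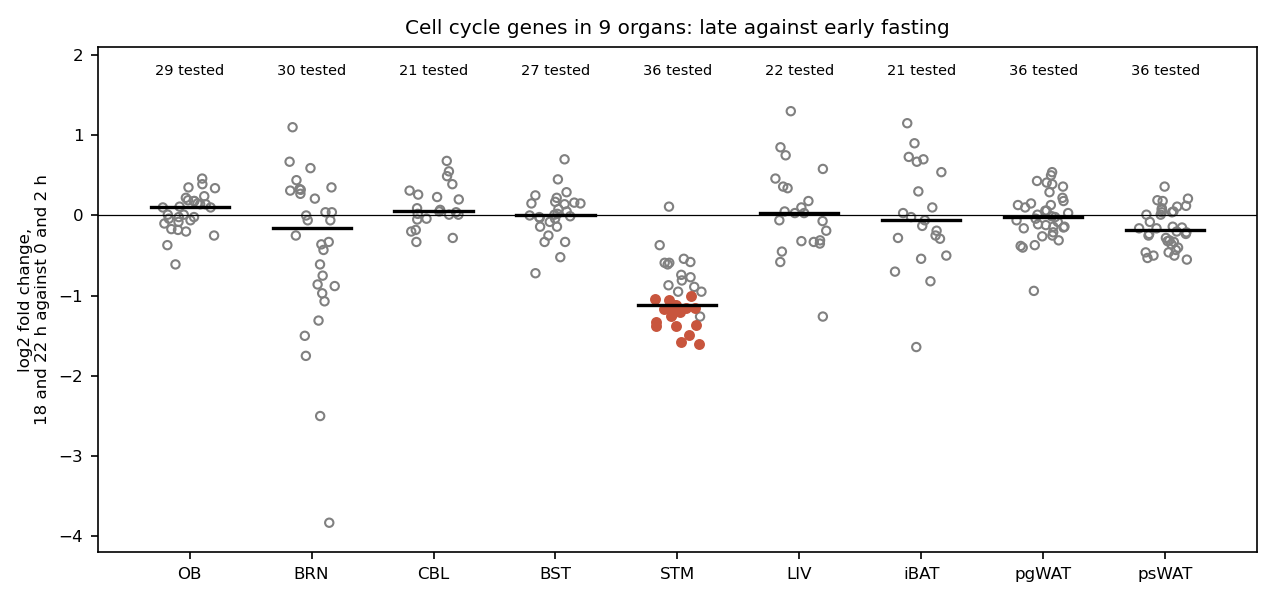
Late log2FC (mean of 18 and 22 h minus mean of 0 and 2 h, y axis) of each tested member in each organ (x axis). Each dot is 1 gene, filled red dots were called and the bar is the median; 21 dots are red in stomach, where the median is -1.12, and no dot is red in the other organs.

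In the late contrast no member was called in any of the other 8 organs. The edgeR contrast tested 29 members in OB, 30 in BRN, 21 in CBL, 27 in BST, 22 in LIV, 21 in iBAT, 36 in pgWAT and 36 in psWAT. Unadjusted p-values below 0.05 were found for 2, 2, 3, 2, 8, 5, 1 and 0 of them in that order. Among all genes such p-values numbered 4209 of 16742 in OB, 4597 of 16749 in BRN, 3059 of 15976 in CBL and 1945 of 16784 in BST. In LIV they numbered 4192 of 14023, in iBAT 6760 of 14529, in pgWAT 3315 of 16412 and in psWAT 1142 of 16721. DESeq2 called 0 in 7 of the 8 organs and in iBAT the checkpoint gene Bub1b, named here after its value was seen. The share of all genes called was 0.197%, 1.97%, 0.131%, 0%, 1.38%, 12.7%, 0.00609% and 0% in the same order. The medians of the tested members were 0.10, -0.16, 0.05, 0.01, 0.03, -0.06, -0.02 and -0.18 in that order.

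The 6 genes followed in every organ had these late log2FCs, none called. For Mcm2 they were 0.10 in OB, 0.59 in BRN, 0.20 in CBL, 0.17 in BST, -0.31 in LIV, -0.25 in iBAT, 0.18 in pgWAT and 0.19 in psWAT. In the same order Pcna was at 0.19, 0.21, 0.09, 0.00, 0.03, 0.54, 0.15 and 0.04, and Cdk1 at 0.01, -0.25, 0.68, 0.16, 0.34, 0.67, 0.54 and 0.07. The estimates of Mcm2 and Pcna thus stayed within 0.6 of 0 in each of these organs. Top2a was at -0.61 in OB, -1.50 (SE 0.782) in BRN, -0.33 in BST, -0.07 in LIV, -0.70 in iBAT, -0.37 in pgWAT and -0.33 in psWAT. Mki67 was at -0.37, -0.75, -0.72, 0.36, 0.70, -0.06 and 0.36 in those 7 organs, and both were too low to be tested in CBL. Ccnb1 was tested in BRN (-2.50, SE 1.79), pgWAT (-0.14) and psWAT (-0.16) alone.

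In LIV a few members were higher in fasted than in fed mice. Tk1, the salvage kinase of thymidine, had its highest organ mean there, and was at 62.5, 62.1 and 58.2 normalized CPM at 0 h, 53.4, 33.4 and 54.9 at 2 h, a mean of 97 ± 17.5 (SD, n = 3) at 8 h, and 64.5, 85.3 and 108 at 12 h. It was at 81.8, 71.3 and 94.5 at 18 h and 69.5, 74.6 and 88.6 at 22 h. Every library from 8 h on lay above every library of 0 and 2 h. All libraries of 18 and 22 h lay above all of 0 and 2 h for 2 of the 22 members tested in LIV, against 2.47% of all genes. Tk1 was the only member the joint test called (edgeR adjusted p = 0.0126), against 16% of all genes, and its late log2FC was 0.58 (SE 0.137, edgeR adjusted p = 0.00904), a fold of 1.49 higher. Afmid, whose exons share 83 bases with Tk1 on the other strand, was at 27.3 to 43.5 at 0 and 2 h, 32.4 to 59.1 at 8 and 12 h and 25.6 to 35.1 at 18 and 22 h. Its highest libraries thus lay at 8 and 12 h, as did those of Tk1, and which gene the reads over the shared bases came from cannot be told apart. Sequencing lane ran almost with time in LIV as it did in STM, with all libraries of 0 and 2 h and 2 of 8 h in lane 1 and the rest in lane 2. With lane as a term Tk1 was still called by the joint test, and the late values in LIV carry this limit. With all libraries of replicate 2 left out, Tk1 was not called by the joint test.

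Cyclins A2 and B2 were low in LIV and were called higher than at 0 h at 18 h. Ccna2 was at 1.03, 1.52 and 1.97 at 0 h, 2.53, 2.83 and 2.01 at 2 h and 2.89, 2.78 and 4.1 at 18 h, and was called at 18 h (log2FC 1.12, edgeR adjusted p = 0.0315). Ccnb2 was at 0.771, 1.01 and 0.705 at 0 h, 2.27, 1.95 and 1.91 at 18 h, and 1.59, 3.03 and 2.28 at 22 h. It was called at 18 h (1.28, edgeR adjusted p = 0.0412) and 22 h (1.45, edgeR adjusted p = 0.0402). The 2 h libraries of Ccnb2 (1.81, 1.67 and 1.66) were already above those of 0 h. Birc5 was called at 12 h alone (1.09, edgeR adjusted p = 0.0311), at 5.95, 4.71 and 5.95 against 2.31, 2.79 and 2.68 at 0 h. These 3 were the members called at any time, against 4.16% of all genes, and without replicate 1 or 2 of 0 h none was called and without replicate 3 of 0 h 1. With sequencing lane as a term none of the 3 was called, and 1 other member was, the kinase Plk1, named here after its value was seen. Without the fold threshold 4 members were higher in the late contrast (Ccna2, Ccnb2, Mcm7 and Tk1), against 7.76% of all genes. Mcm7 was at 8.49 to 13.9 early and 14.3 to 16.3 late, with a log2FC of 0.46 (SE 0.123, edgeR adjusted p = 0.0159). Mki67 (0.986 to 4.58) and Top2a (0.127 to 2.44) stayed low, and neither was called.

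In iBAT 3 of the 21 members tested were called at 22 h against 0 h, all higher. Of all genes 12.6% were called higher there and 29.8% were called at any time. The member count lies near the first share and below the second, so the members did not stand out from other genes. Only 2 libraries of 22 h were kept. Cenpa was at 7.91, 6.37 and 8.53 at 0 h and 22.6 and 13.8 at 22 h (log2FC 1.24, SE 0.32, edgeR adjusted p = 0.00586). Bub1b was at 1.09, 0.963 and 0.61 at 0 h and 6.69 and 1.67 at 22 h (2.12, edgeR adjusted p = 0.0172). Cdc6 was at 1.6, 1.11 and 2.24 at 0 h and 5.42 and 2.45 at 22 h (1.2, edgeR adjusted p = 0.0483). In all 3 the higher value came from replicate 2, and without that library no member was called against 0 h at any time and Tpx2 was in the late contrast, named here after its value was seen, while without the other 22 h library 7 were. Each of these fits holds 1 library of 22 h, assumed to vary like the other groups. Replicate 2 of 22 h was the only kept iBAT library of lane 1 and had the lowest total of those kept, 3156101 counts, of which 21 were of Bub1b and 17 of Cdc6. It was also the only kept iBAT library of its library series, the leading part of the library codes. The part of lane, series and depth in these calls was not tested. Of the 21 members, Cenpa alone was called by the joint test (edgeR adjusted p = 0.0335), against 29% of all genes. It was not called when replicate 2 of 2 h, any library of 8 h, replicate 3 of 18 h or replicate 2 of 22 h was left out. Mki67 was at 4.46 and 0.223 and Cdk1 at 0 and 1.56 in these libraries, so the pair did not move together.

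Calls in iBAT also came from the other lists. Of 36 regulators tested 2 were called in the late contrast, both lower, against 12.7% of all genes called in either direction, with Ccnd1 at -1.12 (SE 0.238, edgeR adjusted p = 0.00264). Of 19 further replication genes tested 2 were called. Dnmt1, the maintenance DNA methyltransferase, was called lower (-1.45, edgeR adjusted p = 0.00108), and Gins1, a subunit of the helicase complex named here after its value was seen, higher (1.30, edgeR adjusted p = 0.00537). At 22 h against 0 h, which rests on the 2 libraries described above, 4 of the 19 replication genes were called higher and 5 lower, and 3 of the 36 regulators higher and 8 lower. Of all 14529 genes 1835 were called higher and 2475 lower in that comparison. Dut, which removes dUTP, was higher at 22 h (1.62, edgeR adjusted p = 0.00139). E2f2 was lower at 22 h (-4.52, edgeR adjusted p = 0.0015) and the antiproliferative Btg1 higher (1.53, edgeR adjusted p = 0.000567). Of the further mitosis genes, Mad2l1 (1.28, edgeR adjusted p = 0.0213) and Anln (1.27, edgeR adjusted p = 0.0278) were called higher at 22 h. Wee1 was at -0.14 and Cdkn1a at 0.68 in the late contrast, neither called.

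The organs differed in level, and STM and psWAT led for most members. Of the 36 tested genes, psWAT had the highest and STM the second mean for 27, and STM the highest with psWAT second for 3, Cdk1 among them. The exceptions were Tk1, highest in LIV, and E2f1 and Ccne1, highest in BRN, with 3 more that had another organ in second place. Mki67 had a mean of 84.1 ± 55.4 (SD, n = 17) normalized CPM in psWAT, 51.9 ± 18.1 (n = 17) in STM, 12.2 ± 3.58 (n = 18) in pgWAT and 0.318 ± 0.299 (n = 18) in CBL. In psWAT it ranged from 20.4 to 200 and in STM from 27.1 to 85.8, so the order of these 2 organs lay within their spread. Top2a had means of 45 ± 29.5 in psWAT, 28.4 ± 12.7 in STM and 9.09 ± 3.11 in pgWAT, and of 0.524 to 1.52 in the other 6 organs.

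**Figure D4:**
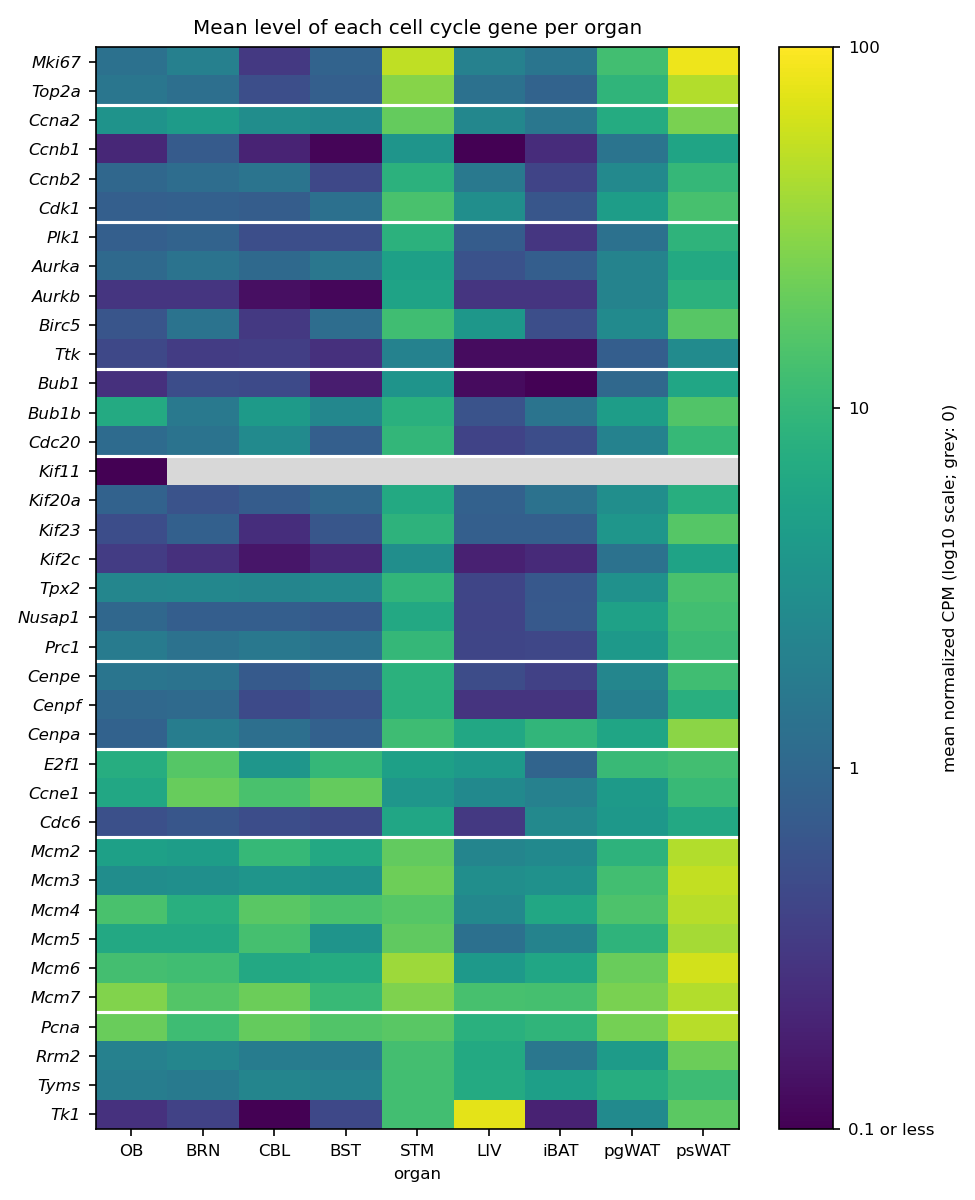
Heat map of the mean normalized CPM (log10 colour scale) of each member (rows) in each organ (columns) over the kept libraries. The columns for stomach and psWAT hold the highest means for most mitotic members, and Tk1 has its highest mean, 75.2, in liver.

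Ccnb1, Cdk1 and Mcm2 showed the same leading pair. Ccnb1 had a mean of 5.64 ± 3.45 in psWAT, 3.69 ± 2.6 in STM and 1.43 ± 0.678 in pgWAT, and below 1 elsewhere. Cdk1 had one of 13.8 ± 5.4 in STM and 13.5 ± 6.49 in psWAT, which did not differ beyond their spread, then 4.67 ± 1.76 in pgWAT and 3.06 ± 0.877 in LIV. Mcm2 had one of 44.8 ± 17.8 in psWAT, 18.8 ± 7.65 in STM and 10.3 ± 1.4 in CBL. Pcna was spread more evenly, from 7.92 ± 1.49 in LIV to 47 ± 12.2 in psWAT, with 20.6 ± 2.61 in OB and 19.4 ± 1.52 in CBL. Per kilobase of exon, the mean level of Pcna in STM was 7.08 and that of Mki67 5.15, Top2a 3.15, Cdk1 2.8, Mcm2 2.71 and Ccnb1 0.875.

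Organ contrasts were fitted on all kept libraries with time as a term, on a scaling common to all organs, so these log2FCs need not match ratios of the levels above. STM was higher than the mean of the other 8 organs for 31 of 36 members, all 23 mitotic and 8 of 13 replication genes, against 20.5% of all genes called higher and 15.3% lower. The median of the members was 2.60 and that of all genes -0.12. Mki67 stood 4.51 (SE 0.133, edgeR adjusted p = 6.19e-70) higher and Top2a 3.94 (SE 0.14, edgeR adjusted p = 7.01e-60). E2f1, Ccne1, Mcm4, Mcm7 and Pcna were not called; Pcna was at 0.28 (edgeR adjusted p = 0.00152) and Ccne1 at -0.71.

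LIV was higher than the mean of the other 8 organs for 6 members and lower for 15, against 21.3% of all genes called higher and 30.3% lower. Of these 6, only Tk1 had its highest organ mean in LIV. Tk1 stood out with 7.04 (SE 0.113, edgeR adjusted p = 3.98e-106) and a mean of 75.2 ± 20.6 (n = 18) against 17.4 ± 8.48 in psWAT and 12.5 ± 4.43 in STM. Afmid, which overlaps it, was high in LIV too, at 25.6 to 59.1 against at most 7.92 in a library of any other organ. The others called higher were Cenpa (1.54), Cdk1 (1.28), Birc5, Rrm2 and Tyms, and those called lower included Bub1b (-2.02), Ccnb1 (-1.84) and Mcm2 (-1.11). With library totals in place of scaling factors, 2 members were higher and 24 lower in LIV. With the 0 h libraries alone 13 members were called in either direction in place of 21, and Ccnb1 and Mcm2 were among those lost.

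psWAT was higher than pgWAT for 29 of 36 members and lower for none, against 24.4% of all genes called higher and 19.7% lower, with a median of 1.72. iBAT was lower than the mean of both white depots for 31 and higher for 0, against 29.3% lower and 14.2% higher, with a median of -2.58. Mki67 was 2.54 (SE 0.232, edgeR adjusted p = 8.94e-20) higher in psWAT than pgWAT and 3.83 lower in iBAT than the white depots (log2FC -3.83, edgeR adjusted p = 2.03e-30). Cenpa was the mitotic member not lower in iBAT (0.22, edgeR adjusted p = 0.219).

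The summed level of the members varied more in psWAT than in any other organ. It ran from 317 to 1470 normalized CPM over its 17 libraries, a fold of 4.64, next to one of 3 in STM. The median coefficient of variation of a member was 52.4% in psWAT, 34.2% in pgWAT and 66.1% in BRN. Lymphocyte markers and members were high in the same libraries. High member sums of 1470 at 0 h, 1270 at 22 h and 1150 at 2 h came with B cell marker sums of 3040, 2940 and 2560. The 2 lowest, 317 at 8 h and 347 at 12 h, came with sums of at most 172. The B cell sum in the other organs did not exceed 21.2, the value of 1 pgWAT library. The adipocyte markers that define the depot summed to 64.4 in the 22 h library with 1270 and to 7400 in the 8 h library with 317. The part of lymphoid tissue in the psWAT levels was not tested. The lowest 12 h library, replicate 3, also carried cerebellar transcripts.

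**Figure D5:**
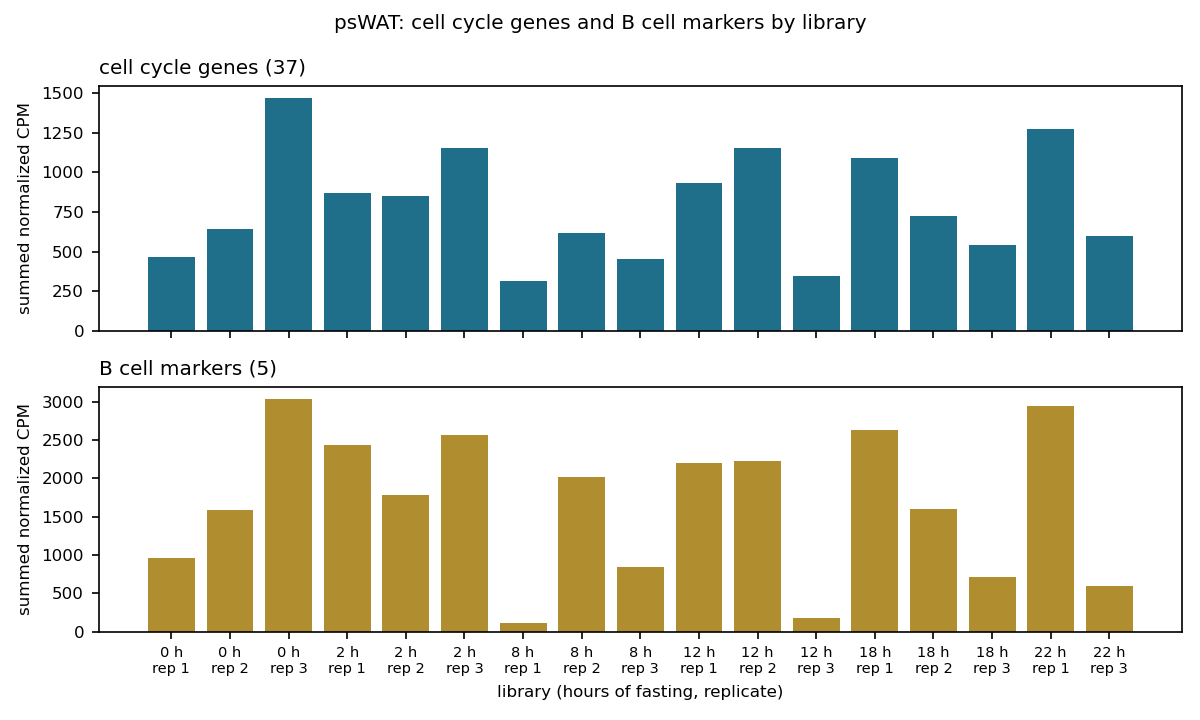
Summed normalized CPM of the cell cycle members and of 5 B cell markers (y axes) in each psWAT library by hours of fasting (x axis). The member sum spans 317 to 1470 and the B cell sum reaches 3040, with the highest member sum and the highest B cell sum in the same 0 h library.

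No member was called for fasting time in psWAT in any of the 3 edgeR tests, which called 0% of all genes, and none by DESeq2. The 0 h library with the highest sum held the highest psWAT value of 20 of the 36 members, and the 22 h library with the next sum that of 9. The smallest joint p belonged to Ccne1, at 6.5, 13.7 and 14.4 at 0 h, 4.02, 8.59 and 5.11 at 8 h and 12.4, 11.7 and 12.7 at 12 h (edgeR adjusted p = 0.298). The median log2FC of the members at 8 h against 0 h was -1.08, at a time point that holds 2 of the 3 libraries of highest adipocyte sum. Late log2FCs were 0.36 (SE 0.53) for Mki67, -0.33 (SE 0.622) for Top2a and 0.19 (SE 0.302) for Mcm2.

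In pgWAT the member sum varied 1.84-fold between libraries, with a median of 227, and no member was called in any of the 3 tests, which called 0.00609%, 0.00609% and 0% of all genes. The smallest joint p was that of Ccna2, at 9.41, 14.9 and 8.92 at 8 h against 7.35, 4.55 and 6.58 at 0 h (edgeR adjusted p = 0.418). The fat depot lies beside the epididymis, and 4 libraries carried testis and epididymis markers, at sums of 19100 and 580 at 22 h, 4180 at 18 h and 2630 at 2 h. Without them no member was called in pgWAT either. Late log2FCs were 0.54 (SE 0.276) for Cdk1 and -0.06 (SE 0.203) for Mki67. In pgWAT no library of 18 or 22 h shared a sequencing lane with one of 0, 2 or 8 h. A change of lane and a late change therefore cannot be told apart there.

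In the 4 organs of the nervous system no call was made for the members, and most mitotic members were low. In BRN all libraries of 0 h shared a library series, and all of 18 and 22 h shared a different series. What the series stands for is not given, and its part in the BRN values was not tested. The highest sum of the members was 1.21 times the lowest in OB, 1.38 times that in BRN, and 1.3 and 1.18 times that in CBL and BST, with most of the sum from replication genes. The tests against 0 h called, at any time, 0.544% of all genes in OB, 5.93% in BRN, and 0.676% and 0% in CBL and BST. The joint test called 15.4%, 0.00597%, 2.99% and 0.107% in the same order. Unadjusted joint p-values below 0.05 were found for 3 members each in OB and CBL, 1 in BST and 0 in BRN. Among all genes such p-values numbered 5425 of 16742 in OB, 3801 of 15976 in CBL, 1870 of 16784 in BST and 2779 of 16749 in BRN. DESeq2 called Mcm4 at some time in BRN and Mcm5 by the joint test in CBL, named here after their values were seen. The smallest joint p in OB was that of Pcna, at 23.3, 24.9 and 27.1 at 18 h and 16.8 to 22 at the other times (edgeR adjusted p = 0.0696). In CBL, Mcm5 had the smallest (edgeR adjusted p = 0.108), and Mcm3 was at 2.64 to 3.45 early and 4.04 to 5.51 late without overlap, with a log2FC of 0.55 (SE 0.167, edgeR adjusted p = 0.075). All late libraries lay above all early ones for 1 of the 21 members tested in CBL, against 0.663% of all genes. BST gave Mki67, at 0.38 to 2.0 early and 0.468 to 0.993 late (joint edgeR adjusted p = 0.432), and BRN gave Cdk1, at 0 to 2.35 (joint edgeR adjusted p = 0.367).

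The olfactory bulb receives newborn neurons throughout adult life. Its summed neuroblast markers were 869 to 1040 normalized CPM, against 40 to 98.4 in BRN. Of 36 members 1 was higher and 1 lower in OB than the mean of BRN, CBL and BST, against 9.58% and 9.17% of all genes. Without the fold threshold 8 members were higher and 3 lower at FDR below 0.05. The shares of all genes above are with that threshold, so these counts are not set against all genes. Bub1b was higher by 1.38 (SE 0.181, edgeR adjusted p = 2.86e-11), with a mean of 6.91 in OB, 4.29 in CBL, 2.46 in BST and 1.63 in BRN. Ccne1 was lower (log2FC -1.53, SE 0.139, edgeR adjusted p = 1.72e-19), with a mean of 6.25 ± 0.752 in OB and 20.1 ± 5.66 in BRN, 19.8 ± 1.94 in BST and 13.8 ± 1.54 in CBL. Mki67 was at 0.60 (SE 0.23, edgeR adjusted p = 0.0212) and Top2a at 0.87 (SE 0.219, edgeR adjusted p = 0.000364), below the fold threshold.

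Among the regulators the joint test called 3 of 36 tested in OB against 15.4% of all genes, 1 of 34 in CBL against 2.99% and 4 of 37 in LIV against 16%. It called 10 of 36 in iBAT against 29%, 1 of 38 in STM against 6.55%, and 0 in BRN, BST, pgWAT and psWAT. Lane ran almost with time in OB too, with all libraries of 0 and 2 h and 2 of 8 h in lane 3 and the rest in lane 4, so the time values of OB carry the same limit as those of STM and LIV. Those of smallest p in OB were the CDK inhibitor Cdkn2d (edgeR adjusted p = 0.0176) and Cdk4, the partner of D cyclins (edgeR adjusted p = 0.0291), with late log2FCs of 0.21 and 0.14, and of the replication genes Rpa2 (0.26) and Dnmt1 (0.04) were called. In CBL the call was Ccng2 (-0.14) and, of the mitosis genes, Anln (0.14), and Cdkn1a was called at 22 h against 0 h (log2FC 1.01, edgeR adjusted p = 0.0413). In LIV those of smallest p were Btg1 (0.12) and Ccng2 (0.31), and of the mitosis genes Ccnf (-0.03) and Ube2c (0.67), while Lig1 and Mcm10 were called against 0 h. The late log2FC of Ccnd1 was -0.20 in OB, 0.19 in BRN, -0.01 in CBL, -0.15 in BST, -0.28 in LIV, 0.65 in pgWAT and -0.07 in psWAT. That of Wee1 was 0.17, -1.09, 0.10, -0.02, 0.01, 0.58 and 0.33, and that of Cdkn1a 0.03, 0.08, 0.43, 0.38, 0.80, -0.44 and 0.08, in the same order. None of these late values was called.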

How the data were processed

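The authors dissected 9 organs of each mouse, made stranded poly(A) mRNA libraries and sequenced them paired-end. Per the paper's methods and the submitters' processing notes, reads were mapped with TopHat2 2.1.1 to GRCm38.p5, and uniquely mapped reads were counted over exons with HTSeq 0.9.1. The strand setting of the counting is not given in the sources used here. The deposited values are whole counts for 53686 genes in 1 library per mouse and organ, with no normalization, and 0 columns belonged to other samples.

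The 5 libraries whose log10 total was below the organ mean by over 2 SD were left out. A gene was tested in an organ where at least 3 libraries reached the CPM that equals 10 counts in the median library. Counts were fitted with edgeR 4.0.16 in R 4.3.3 (TMM, robust quasi-likelihood), with the 6 time points as groups of up to 3 mice, and p-values were adjusted by Benjamini-Hochberg over all genes tested in that fit. Contrasts called a gene at an adjusted p below 0.05 and an absolute log2FC above 1, and the joint F test at an adjusted p below 0.05. Organ contrasts used 1 fit of all organs with time as a term. The fit that compared the stomach change with that of the other organs was chosen after seeing the data. Printed levels are normalized CPM, and SE is the standard error of the log2FC. Summed levels and overlaps of libraries carry no test. DESeq2 1.42.0, other scaling, other filters, a lane term and left-out libraries were alternatives, and the steps were tested on simulated data. With no fold threshold, the simulated STM late contrast found 49 of 100 genes changed 2-fold and 100 of 100 changed 4-fold. The joint test found 44 and 100, and the comparison of 18 h with 0 h found 11 and 92. A gene not called may therefore still have changed 2-fold. Promoter windows were matched by symbol to RefSeq (GRCm38.p6).

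The members, the lists and the tests were chosen with earlier results of these data known. Genes were named by rule: Mki67, Top2a, Ccnb1, Cdk1, Mcm2 and Pcna in every organ; the 4 called members of smallest joint p in an organ with calls, and 1 member otherwise; 2 called genes per further list; and Wee1, Cdkn1a and Ccnd1. All 37 members are accounted for, and the other members were described in the stomach by role. The mice are separate animals, and each gave all 9 organs. Libraries of the same time point and replicate number were taken as the same mouse across organs. The titles give organ, time and replicate number only, so this pairing is assumed wherever the mouse is used as a block. Across organs, the deviations of libraries from their group means had a mean correlation of 0.0273 within a mouse so assigned (608 pairs) and -0.0133 between mice (1217 pairs). The kept libraries hold at least 3045845 counts, so that 1 normalized CPM rests on about 3 or more reads.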

Additional observations from a re-analysis of the deposited data

Results flagged for a closer look

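For 7 members the late change in STM differed from the mean late change of the other 8 organs, by the edgeR test of that difference. The difference was -1.39 for Mcm2, -1.37 for Mcm5, -1.30 for Cdk1, -1.27 for Mcm3, -1.27 for Ccna2, -1.17 for Rrm2 and -1.07 for Pcna, all lower in STM. The count stayed at 7 with the mouse as a block, and was 5 without replicate 1, 7 without replicate 2 and 6 without replicate 3. These 7 genes share the 18 mice and the stomach libraries, in which sequencing lane and fasting time nearly coincide, so they are not independent of each other. A change of lane and a change with fasting cannot be told apart for most of these libraries.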

How the results depend on the processing

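The late contrast in STM called 21 members, and the number was unchanged with DESeq2, with RLE factors and without a low-count filter, 17 with library totals only and 20 with the 5 small libraries put back. With lane as a term it was 0, as were the STM counts at any time (0 in place of 19) and by the joint test (0 in place of 11). Leaving out replicates gave 3 to 24 members late, 0 to 23 at any time and 0 to 13 jointly. The joint test called 21 with DESeq2 and 17 with no low-count filter. In LIV, members called at any time went from 3 to 1 with no low-count filter and to 1 with lane, a member not among the 3, and ran from 0 to 4 when replicates were left out. The joint count of 1 became 2 with no low-count filter and 2 with library totals, and ran from 0 to 2 when replicates were left out. With no fold threshold 4 were called late. Without replicate 3 of 8 h 1 was called late. In iBAT the late count of 0 became 1 with DESeq2, 1 with no low-count filter, 1 with library totals and 2 with no fold threshold. It ran from 0 to 1 when a replicate number was left out, and with single libraries left out it was highest, 3, without replicate 3 of 22 h and 1 without replicate 2 of 22 h. Its count at any time ran from 0 to 7, and its joint count of 1 was 2 with DESeq2, 2 with no low-count filter and 0 to 3 with replicates left out. Elsewhere the counts of 0 rose in places. In OB 1 was called at any time with no fold threshold and 3 jointly with no low-count filter. In CBL 1 was called jointly with DESeq2 and 2 with no low-count filter. In BRN 1 was called at any time with DESeq2 and 1 with no low-count filter, and leaving out replicates gave 0 to 2 late, 0 to 3 at any time and 0 to 2 jointly. In psWAT leaving out replicates gave 0 to 5 at any time and 0 to 3 jointly. The cause of these moves was not tested, apart from the smaller number of mice when replicates are left out.

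Among the organ contrasts, 1 member was lower in STM with no fold threshold. In LIV, 2 were higher and 24 lower with library totals only, and 7 were lower with the 0 h libraries alone. In OB, 8 were higher and 3 lower with no fold threshold. The other alternatives of the organ contrasts stayed within 1.5 times the reported counts. No member or named gene changed sign while called. Among genes with few counts, such as Ccnb1, Ttk and the mitotic members of the brain, LIV and iBAT, depth limits what can be seen.

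Replicate numbers name different mice at each time point, and within an organ same-numbered libraries did not deviate together, with mean correlations of -0.0779 to 0.159 and lowest ones of -0.764 to -0.227. With the replicate block the STM counts were 21 late, 18 at any time and 11 jointly, LIV had 2 at any time and 1 jointly, and iBAT had 4 and 1. With the mouse as a block in place of time, the organ contrasts gave 31 higher members in STM, 6 higher and 15 lower in LIV, and 30 higher in psWAT than pgWAT.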
